A study of Mus musculus with 9 samples.

Results

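The 10 Notch pathway genes described here are the receptors Notch1, Notch2 and Notch4, the ligands Dll1, Dll4, Jag1 and Jag2, the DNA-binding protein Rbpj and the target genes Hes1 and Hey1. They were taken by symbol from the deposited expression table, which holds all 10 of them among 24321 gene symbols. RNA was sequenced from meningeal lymphatic endothelial cells (MLECs), the cells that line the lymphatic vessels of the dura, in 9 libraries of 3 groups with 3 libraries each. The mice were male, labelled as 10 weeks old, of the C57BL/6 strain in every group, and were injected at 7 to 8 weeks of age. Control mice received PBS, GL261 mice received cells of a mouse glioma line and B16 mice received cells of a mouse melanoma line. Each library held 10 cells sorted by flow cytometry with antibodies to LYVE-1, CD31 and CD45, from meninges pooled from 6 mice, so a library averages over mice and rests on few cells. GL261 mice were taken about 3 weeks after injection and B16 mice about 2 weeks after it, so by the labels tumor type and time cannot be told apart. GEO's labels give the cisterna magna as the site of injection and the study's methods give a subdural injection. The study's results text differs from the labels in further points: it names PDPN in place of LYVE-1 for the gate and gives the same time after injection for all groups.

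Notch receptors are single-pass membrane proteins that are activated by ligands of the Delta-like and Jagged families on a neighbouring cell. After binding, ADAM proteases and gamma-secretase release the intracellular domain, which joins RBPJ and the Mastermind proteins on DNA and turns on genes such as those of the HES and HEY families. In blood vessels the pathway is known for the choice between tip and stalk cells and for arterial identity, and in lymphatic vessels for its part in sprouting and in valves.

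The values were fragments per kilobase of transcript, scaled to the mapped fragments of the library (FPKM), a level per length, so that levels of different genes can be set side by side. Differences are given as differences in log2(FPKM + 1), tumor-associated minus control, from limma, a linear model that shares information on the spread across genes. Such differences understate the change of genes with a low level. The table does not give the depth, and the steps between low FPKM values put it at an estimated 1225300 to 1935600 fragments in the control libraries, 4488500 to 8182500 in GL261 and 2070200 to 4635700 in B16, with 69.2% to 79.9% of low values within 0.1 of a whole fragment. Every control library was therefore shallower than every tumor library, and depth and group cannot be told apart. An FPKM listed at 0 can also be a failed estimate. The median difference of all 9955 tested genes was 0.20 and fell to 0.05 after rescaling each library to the same sum and to 0.03 after quantile normalization, so small positive differences should be read against that shift.

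The libraries were checked against cell type markers before the Notch genes were compared. Lyve1, whose protein the labels name for the sort, ranged from 974 to 1705 FPKM in control and from 628 to 1895 FPKM in tumor-associated libraries. Pecam1, which encodes CD31, ranged from 150 to 293 FPKM in control and from 309 to 468 FPKM in tumor-associated libraries (adjusted p = 0.222, limma). The groups did not overlap for Pecam1, and 6.08% of all tested genes were higher in this way. Ptprc, which encodes CD45, was listed at 0 in all 9. Prox1, the defining transcription factor of lymphatic endothelium, was at 20.9, 33.7 and 42.2 FPKM in the control libraries, at 1.87, 1.98 and 16.5 in GL261 and at 2.37, 3.72 and 3.12 in B16 (adjusted p = 0.0509, limma). Flt4, the VEGF receptor of lymphatic endothelium, fell by 1.80 on the log2(FPKM + 1) scale, from 174, 205 and 220 FPKM over the control libraries to 40.1 to 106 over the tumor-associated ones (adjusted p = 0.0160). Of 9 tested lymphatic markers 4 fell and none rose, and the summed level of the 10 markers was 2990 to 3230 FPKM over the control libraries and 824 to 2590 over the tumor-associated ones. Of 12 blood endothelial markers 8 rose and none fell, with a summed level of 2510 to 3610 FPKM over the control libraries and 6410 to 10100 over the tumor-associated ones. Of all tested genes 3.93% passed an adjusted p of 0.05 in this comparison, in either direction. Cldn5, 1 of the 12, fell in GL261 against control (-1.01 ± 0.21 SE, adjusted p = 0.0215, limma) and did not pass in B16 (-0.25, adjusted p = 0.616). Flt1, a VEGF receptor of blood endothelium, was at 0.0997, 0.856 and 0.544 FPKM in control libraries and at 49.0 to 156 FPKM in tumor-associated ones, and Cd34 at 0.370 to 14.3 against 153 to 592 FPKM. Cdh5, which encodes the cadherin of all endothelium, was at 37.9 to 93.3 FPKM over the control libraries and 73.6 to 94.0 over the tumor-associated ones (adjusted p = 0.524). None of the 7 markers of all endothelium, 5 tested arterial, 3 tested mural and 1 tested leukocyte markers passed, and the 1 tested fibroblast marker, Dcn, fell. Melanoma markers summed to at most 4.07 FPKM in any library. The glial and glioma markers summed to at most 3.04 FPKM in GL261. In B16 they summed to 25.4 to 37.0 FPKM, nearly all of it S100b. S100b was higher in B16 than in control (4.80 ± 0.84 SE, adjusted p = 0.0135, limma), and the cells it came from were not tested. S100b stood on the glial and glioma list only, so the melanoma sum leaves it out. The part of blood endothelial RNA in the Notch results was not tested, and in such pooled cells fewer cells of a type and less RNA per cell cannot be told apart.

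Control library 1 stood apart from the rest. It held 505 FPKM of Acta2, which encodes the smooth muscle actin, against 0 in the other control libraries and at most 6.34 FPKM in any tumor-associated one, and 3.96 FPKM of Pdgfrb, which was listed at 0 everywhere else. The 10 mural cell markers summed to 1270 FPKM in it, against 17.6 to 203 FPKM in the other 8 libraries. Notch results that rest on this library are given with and without it.

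**Figure D1:**
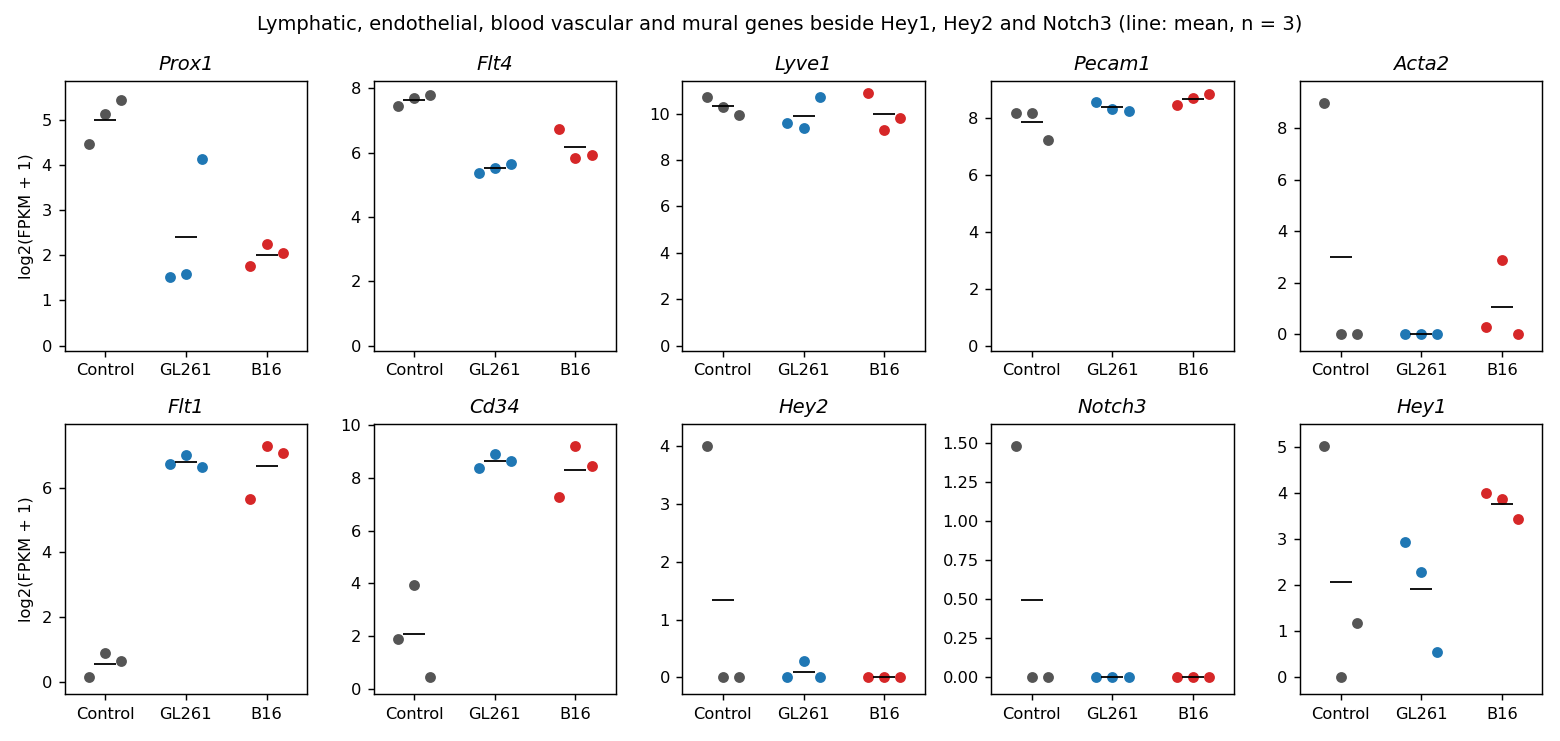
Each point is 1 library, the horizontal line is the group mean (n = 3) and the vertical axis of every panel is log2(FPKM + 1). Flt1 and Cd34 are higher in all 6 tumor-associated libraries than in the 3 control libraries, while Acta2, Hey2, Notch3 and Hey1 have their highest values in Control library 1.

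None of the 10 Notch pathway genes passed an adjusted p of 0.05 between tumor-associated and control MLECs (limma, Benjamini-Hochberg), where 3.93% of all tested genes did. At an unadjusted p under 0.05 there were 4, with Dll1, Jag2 and Hes1 higher and Notch2 lower, against 19.0% of all tested genes. The median difference over the 10 genes was 0.71, with 7 positive and 3 negative. Over all tested genes the median was 0.20, and 57.2% of them were positive. Seurat's ROC measure, which the study used to choose genes, put 8 of the 10 past a power of 0.4, and 51.6% of all tested genes. The power was computed alone, without the other filters of Seurat's function, and does not stand for the genes that the study selected.

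The 3 receptors had differences of unlike sign, none past the adjusted threshold. Notch2, a receptor encoded at chr3:97817461-97954290 (mm9, plus strand, 34 exons), had 7.43, 14.7 and 16.01 FPKM in control libraries 1 to 3, 2.42, 2.15 and 4.20 in GL261 and 5.16, 2.00 and 2.80 in B16. The lowest control library lay above the highest tumor-associated one, and Notch2 was the single member of the 10 whose groups did not overlap. Among all tested genes 4.44% were lower and 6.08% were higher without overlap. The mean was 12.7 ± 4.62 FPKM (SD, n = 3) in control, 2.93 ± 1.12 in GL261 (n = 3) and 3.32 ± 1.65 in B16 (n = 3). The difference was -1.72 ± 0.66 (SE; 95% interval -3.14 to -0.30), with an adjusted p of 0.178 from limma and an exact two-sided permutation p of 0.0119, the smallest that the 84 divisions of 9 libraries allow. These levels stood on an estimated 127 to 292 fragments in control and 78.5 to 193 in tumor-associated libraries, which overlap. The part of depth in this difference was not tested. Without Control library 1 the difference was -2.04, with an adjusted p of 0.166.

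The promoter of Notch2 is shown because its level was the one that separated the groups. That of Rbpj is shown because, of the 8 member promoters searched, it alone has the core letters bound by RBPJ. The sequences are from RefSeq on GRCm38.p6, run from 250 bases before the transcription start to 50 after it, and cover 8 of the 10 members. Hes1 and Hey1 had no entry, so their promoters were not searched. The sequences at hand were searched on both strands for TGGGAA, the core of the RBPJ site. The other motif was CACGTG, an E box of the kind that HES and HEY proteins can bind. Capitals mark the matches. The Notch2 window lies at chr3:98013288-98013587 (plus strand) and holds neither motif. The first of the Rbpj windows lies at chr5:53590096-53590395 (plus strand) and holds TGGGAA at positions 102 to 107 and, on the other strand, at 186 to 191.
Notch2: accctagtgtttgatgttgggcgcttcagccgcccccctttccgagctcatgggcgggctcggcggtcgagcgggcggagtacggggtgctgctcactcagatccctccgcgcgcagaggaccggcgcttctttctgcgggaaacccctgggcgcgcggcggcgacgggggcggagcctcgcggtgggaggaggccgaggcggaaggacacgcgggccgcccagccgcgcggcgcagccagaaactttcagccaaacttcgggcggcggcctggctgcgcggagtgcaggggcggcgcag
Rbpj: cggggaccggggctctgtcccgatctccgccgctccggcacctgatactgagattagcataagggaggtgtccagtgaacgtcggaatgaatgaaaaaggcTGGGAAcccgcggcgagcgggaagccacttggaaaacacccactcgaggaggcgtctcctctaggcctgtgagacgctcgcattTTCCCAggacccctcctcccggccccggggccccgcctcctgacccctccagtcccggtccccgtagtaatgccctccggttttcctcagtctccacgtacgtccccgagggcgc
Over all 32851 promoter windows of the table, 25.6% hold TGGGAA and 7.15% hold CACGTG. None of the 8 member promoters searched holds CACGTG, and those of Hes1 and Hey1 were not among them. A match is a description of the letters and says nothing of binding in these cells.

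Notch1, the main receptor of the set by level (chr2:26313423-26372183, mm9, minus strand), was at 30.6, 21.6 and 28.3 FPKM in control libraries, 9.97, 13.1 and 15.1 in GL261 and 31.6, 18.8 and 26.4 in B16. All GL261 libraries lay below all control and all B16 libraries, and the B16 libraries overlapped control. The difference was -1.02 ± 0.55 (SE) for GL261 and -0.08 ± 0.55 for B16, with adjusted p of 0.381 and 0.966 (limma), and GL261 minus B16 was -0.94 ± 0.55 (95% interval -2.14 to 0.25, adjusted p = 0.998). With 3 libraries against 3 an exact permutation test cannot go below p = 0.10. The share of all tested genes that set 1 tumor group apart in this way was not computed, here or for the ligands and Hes1 below. The sign for all tumor-associated libraries together (-0.55) turned with a depth covariate. Noncoding genes lie on the opposite strand within the Notch1 locus, and the libraries do not mark strand.

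Notch4, a receptor mostly of endothelium (chr17:34701213-34725448, mm9, plus strand), was at 8.70 and 2.11 FPKM in Control libraries 1 and 2 and listed at 0 in Control library 3. It was at 2.38, 6.84 and 5.60 FPKM in GL261 and at 4.81, 5.33 and 11.2 in B16. The groups overlapped, and the difference was 1.07 ± 0.81 (SE; adjusted p = 0.499, limma). In Control library 3 a count of 3 fragments would have read 0.387 FPKM, so a level under that was not detectable. Without Control library 1 the difference was 1.89 (adjusted p = 0.250), and without Control library 3 it was 0.25 (adjusted p = 0.900). Notch3, a receptor of mural cells, was listed at 1.80 FPKM in Control library 1 and at 0 in the other 8 libraries.

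Within a library the receptors can be set against each other without regard to scaling between libraries. Notch1 made up 56.2% to 76.0% of the summed receptor FPKM in every library and was the leading receptor in all 9. The share of Notch2 was 15.3%, 38.3% and 36.1% in the control libraries and 6.92% to 16.9% in tumor-associated ones, so that Control library 1 fell within the tumor-associated range. The share of Notch4 was 0% to 17.9% in control and 11.6% to 31.0% in tumor-associated libraries. The summed level was 38.4 to 48.5 FPKM for control, 14.8 to 24.9 for GL261 and 26.1 to 41.6 for B16.

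**Figure D2:**
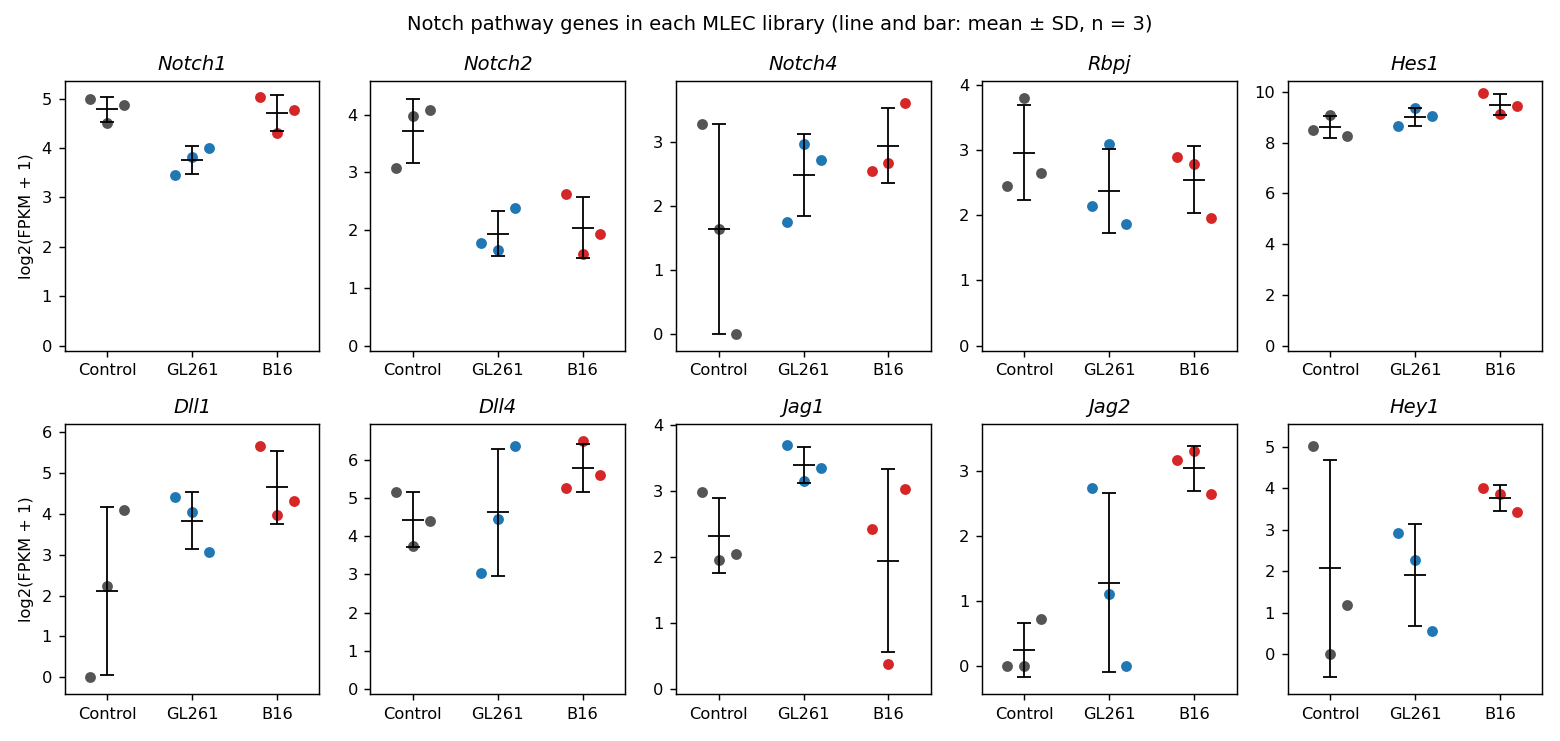
Each point is 1 library, the line and bar are the mean and SD of a group (n = 3), and the vertical axis of every panel is log2(FPKM + 1), scaled per gene. Notch2 is lower in all 6 tumor-associated libraries than in the 3 control libraries, Notch1 is lowest in GL261, and tumor-associated and control points overlap in the other panels.

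Among the ligands Dll4 had the highest mean in each group, although Dll1 exceeded it in GL261 library 1 and B16 library 1 and Jag1 in GL261 library 1. Dll4, the Delta-like ligand of arterial and tip cells (chr2:119151520-119161698, mm9, plus strand), was at 34.8, 12.3 and 20.2 FPKM in control, 7.26, 21.0 and 81.6 in GL261 and 37.6, 89.1 and 47.8 in B16. Every B16 library exceeded every control library, while GL261 held both the lowest and one of the highest values. Scaled to a sum of 1000000 per library, Control library 1 (52.3) lay above B16 library 1 (49.5). The difference was 0.19 ± 0.80 (SE) for GL261 and 1.36 ± 0.80 for B16 (adjusted p = 0.935 and 0.461, limma). GL261 library 3, the one with 81.6 FPKM, was also the tumor-associated library with the most Prox1 (16.5 FPKM). B16 library 2, with 89.1 FPKM of Dll4, had 3.72 FPKM of Prox1. The control libraries, with 12.3 to 34.8 FPKM of Dll4, had 20.9 to 42.2 FPKM of Prox1. A link between these genes was not tested.

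Dll1, another Delta-like ligand (chr17:15504318-15513836, mm9, minus strand), was listed at 0 in Control library 1 and was at 3.74 and 16.3 FPKM in Control libraries 2 and 3. It was at 20.2, 15.4 and 7.32 FPKM in GL261 and at 49.8, 14.8 and 18.8 in B16. Control library 3 lay within the tumor-associated range. The difference was 2.12 ± 0.86 (SE; 95% interval 0.26 to 3.98), with an adjusted p of 0.205 from limma and an exact two-sided permutation p of 0.0476. It fell to 1.06 without Control library 1 (adjusted p = 0.493), and a noncoding gene on the opposite strand overlaps the locus.

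Jag2, a ligand of the Jagged family (chr12:114146801-114167706, mm9, minus strand), was listed at 0 in Control libraries 1 and 2 and was at 0.647 FPKM in Control library 3, which is an estimated 3 fragments. It was at 8.04, 8.91 and 5.28 FPKM in the B16 libraries and at 5.72, 1.15 and 0 in GL261. All B16 libraries exceeded all control libraries, while GL261 ran from 0 to above the lowest B16 value. The share of all genes with B16 above control in this way was not computed. A count of 3 fragments would have read 0.475 and 0.409 FPKM in Control libraries 1 and 2. The difference was 2.81 ± 0.84 (SE) for B16 (unadjusted p = 0.00615, adjusted p = 0.125, limma) and 1.05 ± 0.84 for GL261 (adjusted p = 0.570).

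Jag1, the other Jagged ligand (chr2:136907192-136942380, mm9, minus strand), was at 6.88, 2.85 and 3.13 FPKM in control, 11.9, 7.84 and 9.19 in GL261 and 4.35, 0.301 and 7.17 in B16. The GL261 libraries lay above all control and all B16 libraries. Scaled to a sum of 1000000 per library they overlapped both, with GL261 library 2 at 8.82 against 10.3 in Control library 1 and 9.37 in B16 library 3. GL261 minus control was 1.07 ± 0.89 (SE) and GL261 minus B16 was 1.45 ± 0.89 (95% interval -0.49 to 3.40), with adjusted p of 0.588 and 1.0 (limma). Dll3, an atypical ligand, was listed at 0 in all 9 libraries.

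Summed over the ligands, the level was 41.7, 18.9 and 40.3 FPKM in control, 45.1, 45.4 and 98.1 in GL261 and 99.7, 113 and 79.0 in B16. Every tumor-associated sum exceeded every control sum, although no single ligand did so. Scaled to a sum of 1000000 per library, the sums overlapped, with 62.7 and 61.7 in Control libraries 1 and 3 against 53.7 and 51.1 in GL261 libraries 1 and 2. Dll4 made up 50.3% to 83.5% of the ligand sum in control and 16.1% to 83.2% in tumor-associated libraries, and Jag2 made up 6.69% to 8.06% in B16 and at most 1.61% in control. These sums were formed after the values were seen and were not tested.

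Rbpj, the DNA-binding partner of all Notch receptors (chr5:53947018-54048684, mm9, plus strand), was at 4.46, 12.9 and 5.25 FPKM in control, 3.41, 7.59 and 2.65 in GL261 and 6.46, 5.87 and 2.90 in B16. All groups overlapped, and the difference was -0.51 ± 0.68 (SE; 95% interval -1.98 to 0.97, adjusted p = 0.745, limma). Without Control library 2 it was -0.09 (adjusted p = 0.961). RefSeq lists pseudogenes of Rbpj in the mouse, so its level is uncertain to the extent that reads were shared with them.

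Hes1, a repressor and the best known target of the pathway (chr16:30064470-30067882, mm9, plus strand), had by far the highest level of the 10. It was at 362, 551 and 303 FPKM in control, 402, 655 and 531 in GL261 and 982, 552 and 703 in B16, and between 95.9% and 98.6% of the genes detected in a library had less. The control mean was 406 ± 130 FPKM (SD, n = 3), against 529 ± 127 in GL261 (n = 3) and 746 ± 218 in B16 (n = 3). Every B16 library exceeded every control library, by less than 1 FPKM at the closest, and GL261 overlapped control. Scaled to a sum of 1000000 per library, B16 library 2 (787) lay below Control library 2 (796). The difference was 0.64 ± 0.29 (SE; adjusted p = 0.260, limma) for all tumor-associated libraries, 0.88 ± 0.31 for B16 (adjusted p = 0.206) and 0.40 ± 0.31 for GL261 (adjusted p = 0.561). It was 0.42 after rescaling and 0.36 after quantile normalization. Hes1 also responds to signals other than Notch.

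Hey1, a repressor and target of the pathway in vessels (chr3:8663362-8667039, mm9, minus strand), was at 31.5 FPKM in Control library 1, listed at 0 in Control library 2 and at 1.26 FPKM in Control library 3, an estimated 3 fragments. It was at 6.62, 3.85 and 0.458 FPKM in GL261 and at 15.1, 13.6 and 9.76 in B16. The highest value of all 9 libraries was thus the one in the library with the mural markers. The difference was 0.78 ± 1.11 (SE; adjusted p = 0.760, limma) with all libraries, 2.26 without Control library 1 (unadjusted p = 0.0432, adjusted p = 0.262), -0.26 without Control library 2 and 0.33 without Control library 3. Hey2, a close relative, was at 15.1 FPKM in Control library 1, at 0.216 FPKM in GL261 library 2 and listed at 0 elsewhere. Heyl was listed at 0 in all libraries, and Hes5 was at 3.33 FPKM in GL261 library 2 and listed at 0 elsewhere.

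**Figure D3:**
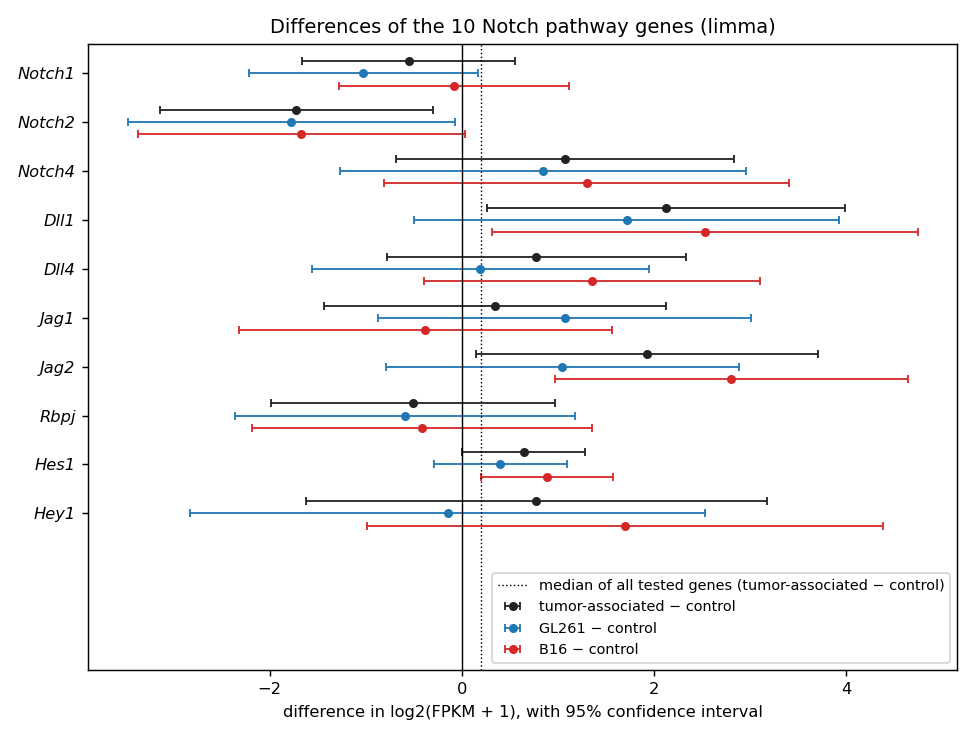
The horizontal axis is the limma difference in log2(FPKM + 1) with its 95% interval for each of the 10 genes, for all tumor-associated libraries, GL261 and B16 against the same control libraries, and the dotted line is the median of all 9955 genes for the first of these. Notch2 lies left of 0 in each comparison, Dll1 and Jag2 lie right of it, and the intervals of most genes cross 0.

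By tumor, again none of the 10 genes passed an adjusted p of 0.05. For GL261 against control 3.49% of all tested genes passed, and at an unadjusted p under 0.05 there was 1 member, Notch2, against 16.9% of all genes. For B16 against control 2.11% of all tested genes passed, and the 3 members at an unadjusted p under 0.05 were Dll1, Jag2 and Hes1, against 15.0% of all genes. These comparisons share the control libraries. For GL261 against B16 there were 0 members at either threshold, against 0.0100% of all genes at the adjusted and 5.50% at the unadjusted p. The intervals of the GL261 minus B16 difference were wide, from -1.17 to 0.21 for Hes1 at the narrowest and from -4.54 to 0.83 for Hey1 at the widest.

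The order of the levels showed the same leader in each group. Hes1 was the highest in control, GL261 and B16, with ranges apart from the next gene. Notch1 at 26.8 ± 4.69 FPKM (SD, n = 3) was next in control, ahead of Dll4 at 22.4 ± 11.4, and these did not differ beyond their spread. From Notch1 down to Jag2, no neighbours in the control order had ranges apart. In GL261 and in B16 Dll4 came after Hes1, at 36.6 ± 39.5 and 58.1 ± 27.3 FPKM (SD, n = 3 each), followed by Dll1 and Notch1, with overlapping ranges. Notch2 stood at place 4 of 10 in control, at place 9 in GL261 and at place 10 in B16. In GL261 Jag1 had its range above that of Notch4, the next in order. In B16 the ranges were apart between Notch1 and Hey1 and between Hey1 and Jag2.

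The list of other Notch pathway genes held 57 symbols, of which 43 passed the filter on low values. Of these 43, 2 rose in tumor-associated MLECs and none fell at an adjusted p of 0.05, which is 4.65% and near the 3.93% of all tested genes, and the median difference was -0.04 against 0.20 over all genes. The genes that rose were Mfng and Kat2a. By role, they were 1 of 5 sugar transferases and 1 of 17 nuclear effectors and inhibitors, and none of the 8 tested proteases and none of the 11 genes of endocytosis and ubiquitin transfer passed.

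The Fringe genes, whose enzymes add a sugar to Notch and shift its preference between Delta-like and Jagged ligands, had differences of opposite sign. Mfng was at 0.382 FPKM in Control library 1, 52.6 in Control library 2 and listed at 0 in Control library 3, and was at 53.2, 93.6 and 51.2 FPKM in GL261 and 46.5, 45.8 and 110 in B16. Control library 2 thus lay above 3 of the 6 tumor-associated libraries. Mfng rose by 3.92 ± 1.01 (SE) with an adjusted p of 0.0486 (limma), and is among the genes the study itself selected from these libraries. That call was lost on leaving out Control library 1 (3.12, adjusted p = 0.164), Control library 3 (2.89, adjusted p = 0.158) or any 1 tumor-associated library (adjusted p from 0.0654 to 0.0971), and without Control library 2 the difference was 5.76 (adjusted p = 0.000249). With the genes detected or the estimated fragments of a library as a covariate the difference was 1.86 and 2.48 (adjusted p = 0.715 and 0.655). The call was also lost without the filter on low values (adjusted p = 0.131), and with a pseudocount of 0.1, after rescaling or quantile normalization, with 3 groups and without a trend, with adjusted p from 0.0617 to 0.0865.

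Lfng was at 11.6, 18.9 and 12.5 FPKM in control, 2.70, 4.30 and 0.220 in GL261 and 0, 0.258 and 3.62 in B16. Rfng was at 16.5, 24.8 and 14.0 FPKM in control, 8.20, 8.00 and 11.3 in GL261 and 0, 3.51 and 1.39 in B16. For both genes every tumor-associated library lay below every control library, and 4.44% of all tested genes were lower in this way. Neither passed (Lfng -2.72 ± 0.79 SE, adjusted p = 0.0789, and Rfng -2.003 ± 0.86 SE, adjusted p = 0.227, limma). As a share of the summed Fringe FPKM, Mfng was at 1.34%, 54.6% and 0% in the control libraries and at 81.6% to 100% in the tumor-associated ones. The groups did not overlap in this share, which was formed after the values were seen and was not tested.

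The promoter of Lfng is shown because it is the Fringe gene with the largest negative difference and its window holds both motifs. It lies at chr5:140607091-140607390 (GRCm38.p6, plus strand). TGGGAA stands at positions 143 to 148 and, on the other strand, at 116 to 121, and CACGTG stands at 139 to 144, sharing bases with the former.
Lfng: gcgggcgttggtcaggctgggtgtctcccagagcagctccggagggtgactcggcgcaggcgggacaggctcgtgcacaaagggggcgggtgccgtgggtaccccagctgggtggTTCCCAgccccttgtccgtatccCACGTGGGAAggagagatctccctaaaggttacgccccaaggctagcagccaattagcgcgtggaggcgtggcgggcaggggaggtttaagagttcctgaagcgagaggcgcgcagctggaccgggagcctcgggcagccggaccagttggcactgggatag
The windows of Rfng and of Notch3 hold neither motif, and that of Kat2a holds TGGGAA at positions 186 to 191 and, on the other strand, at 44 to 49.

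**Figure D4:**
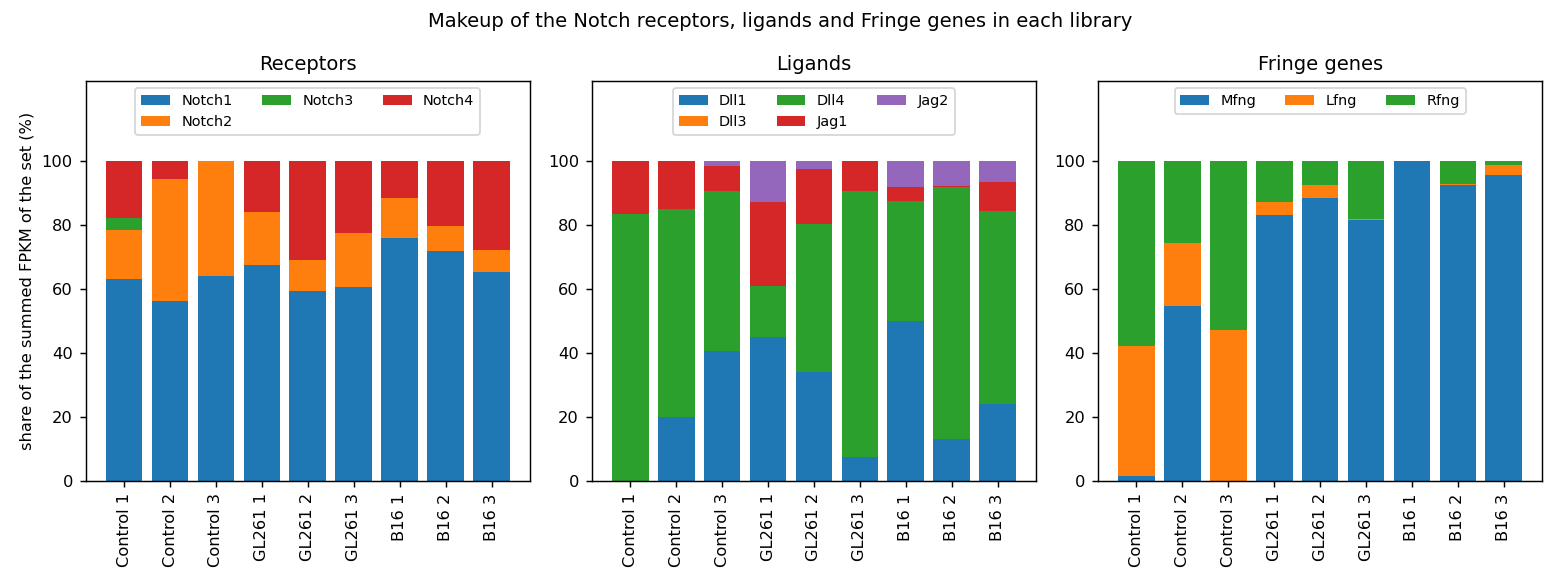
The bars give the share of the summed FPKM (%) of each receptor, ligand and Fringe gene in each of the 9 libraries, and each bar adds up to 100%. Notch1 leads the receptors in every library, and Mfng makes up 81.6% or more of the Fringe sum in the 6 tumor-associated libraries and at most 54.6% in the 3 control libraries.

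Kat2a encodes a histone acetyltransferase that can act with the Notch transcription complex and in many other complexes. It was listed at 0 in Control libraries 1 and 2 and was at 1.47 FPKM in Control library 3, and was at 4.84, 10.4 and 8.50 FPKM in GL261 and at 15.8, 20.6 and 15.6 in B16. The groups did not overlap, and 6.08% of all tested genes were higher in this way. Kat2a rose by 3.21 ± 0.71 (SE; adjusted p = 0.0248, limma), and by 3.75 ± 0.79 in B16 alone (adjusted p = 0.0343), while GL261 alone gave 2.67 (adjusted p = 0.0991). The GL261 minus B16 difference was -1.08 ± 0.79 (SE; 95% interval -2.80 to 0.64), which did not pass (adjusted p = 1). The call was lost without Control library 1 (2.99, adjusted p = 0.0709), Control library 2 (2.99, adjusted p = 0.0571), GL261 library 2 (3.24, adjusted p = 0.0562), B16 library 2 (3.05, adjusted p = 0.0526) or B16 library 3 (3.13, adjusted p = 0.0596). With the same depth covariates the difference was 3.86 and 4.35, and did not pass (adjusted p = 0.245 and 0.203).

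The remaining named genes of the list did not pass. Nrarp, a feedback inhibitor and target of Notch, was at 14.3, 1.34 and 26.4 FPKM over the control libraries and 10.4 to 50.3 over the tumor-associated ones (1.12 ± 0.79 SE, adjusted p = 0.461, limma). Efnb2, an arterial ligand that Notch can induce, was at 0, 4.57 and 6.05 FPKM over the control libraries and 0.325 to 36.2 over the tumor-associated ones (1.53 ± 1.02 SE, adjusted p = 0.433). Gja5, an arterial connexin, was listed at 0 in all 9 libraries, and Sox17, an arterial transcription factor, was at 0.949 to 8.18 FPKM over the control libraries and 4.15 to 13.7 over the tumor-associated ones (0.69, adjusted p = 0.654). Of the 5 tested arterial markers, 2 were lower in every tumor-associated library than in every control library and are named after their values were seen. Of all tested genes, 4.44% were lower in this way. The other 3 arterial markers tested, Efnb2, Sox17 and Cxcr4 (1.45, adjusted p = 0.339, limma), had positive differences. Gja4, a connexin, was at 146, 39.9 and 67.2 FPKM in control libraries and at 0 to 26.7 in tumor-associated ones (-3.97 ± 1.23 SE, adjusted p = 0.0964, limma), and Unc5b, a netrin receptor, at 21.5, 27.0 and 21.6 FPKM and at 0.4996 to 15.3 (-2.34 ± 0.76 SE, adjusted p = 0.112). Egfl7, a secreted endothelial protein that can bind Notch, was at 1037 to 1618 FPKM over the control libraries and 1086 to 1709 over the tumor-associated ones, with a difference of -0.04 ± 0.21 (SE).

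The ADAM proteases that cut Notch were detected in all 9 libraries. Adam10 was at 33.9 to 88.1 FPKM over the control libraries and 49.96 to 85.7 over the tumor-associated ones (0.37 ± 0.40 SE, adjusted p = 0.672, limma). Adam17 was at 16.3 to 23.9 FPKM over the control libraries and 1.17 to 15.5 over the tumor-associated ones, without overlap (4.44% of all tested genes were lower in this way), with a difference of -1.06 ± 0.71 (SE; adjusted p = 0.440). Of the Mastermind coactivators, the differences were 0.06 for Maml1, -0.14 for Maml2 and 0.87 for Maml3, with adjusted p of 0.983, 0.947 and 0.461.

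**Figure D5:**
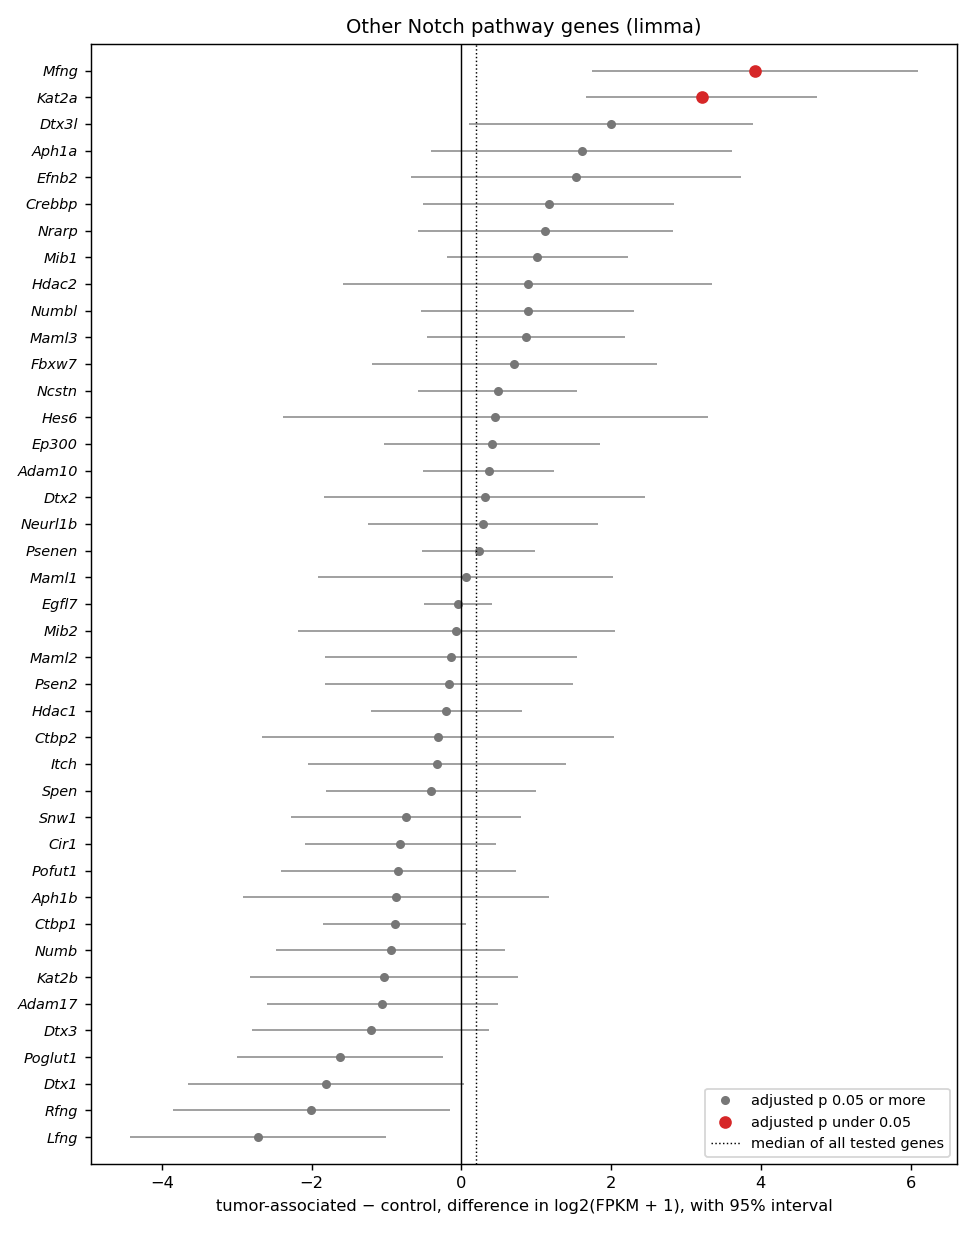
The horizontal axis is the limma difference in log2(FPKM + 1), tumor-associated minus control, with its 95% interval, for 41 of the 43 tested genes of the list of other Notch pathway genes. Mfng and Kat2a, in red, have an adjusted p under 0.05, and Lfng and Rfng lie at the other end.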

How the data were processed

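The study sorted 10 MLECs per library and amplified their cDNA after adding a tail to its first strand, by a protocol that does not keep strand. It aligned the reads to mm9 with TopHat2 2.0.12 and computed gene levels with Cufflinks 2.2.1. The annotation was not given in the sources used here. The deposited table holds the FPKM of each gene and library that the authors computed, on a linear scale, with no further normalization. Such values depend on the fragments assigned to a library, so a few abundant genes can shift all others. They are not counts, so no count model was used.

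FPKM was taken to log2(FPKM + 1), genes with at least 1 FPKM in at least 3 libraries (9955 of 24321) were kept, and limma 3.58.1 (R 4.3.3) was fitted to all of them with a mean-variance trend, with Benjamini-Hochberg adjustment over all tested genes and a threshold of 0.05. Tumor-associated against control was fitted with 2 groups, the other comparisons with 3 groups that share 1 estimate of the spread. The script was tested on simulated data. Exact permutation tests took all 84 divisions of the libraries. The labels say that the libraries are biological replicates, each a pool of 6 mice, and no 2 of the 9 were identical. Depth was estimated from the FPKM steps of low genes with 1 transcript, taking 260 bases off the transcript length, and the floor is 3 fragments. It covers counting error only, since amplified reads are not separate molecules. Gene positions are from GENCODE M1 on mm9 and promoter sequences from RefSeq on GRCm38.p6.

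The members, the gene lists and the tests were chosen with earlier results of these data known. All members, a fixed set of other Notch genes, every listed gene past the threshold and 12 markers were named by rule, except for a few genes that are not reported here. Alternatives were another pseudocount, other filters and scalings, no trend, the replicate number as a block, depth covariates, the study's ROC measure and leaving out each library.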

Additional observations from a re-analysis of the deposited data

Results flagged for a closer look

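Among the 6 tumor-associated libraries, 3 named genes had a library whose distance from its nearest neighbour took up more of the range of log2(FPKM + 1) than Dixon's critical share of 0.625, out of 24 tested, and chance gives about 1 in 20. Hey2 (share 1.0, 0.216 FPKM) and Hes5 (share 1.0, 3.33 FPKM) were above 0 in GL261 library 2 and listed at 0 in the other 5, where any value above 0 gives a share of 1.0, so these shares test nothing. Adam17 was lowest in GL261 library 1 at 1.17 FPKM (share 0.685). No named gene differed between GL261 and B16 at an adjusted p of 0.05 (limma).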

How the results depend on the processing

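No member of the 10 passed an adjusted p of 0.05 in any comparison under any limma alternative, including the range of 0 to 0 over leaving out each library. The study's ROC measure put 8 members past a power of 0.4, and 51.6% of all tested genes. The difference kept its direction in all alternatives for Notch2 (-2.09 to -1.08), Notch4 (0.25 to 2.16), Dll1 (1.06 to 3.45), Dll4 (0.42 to 2.75), Jag2 (1.55 to 3.72), Rbpj (-0.85 to -0.09) and Hes1 (0.36 to 1.10). It turned for Notch1 (0.34 with the log2 of genes detected and 0.51 with the log2 of estimated fragments as a covariate), for Jag1 (-0.37 and -0.78 with the same covariates) and for Hey1 (-0.26 without Control replicate 2, 2.26 without Control replicate 1 and up to 3.08 with genes detected as a covariate). The cause was not tested. The covariate for estimated fragments was chosen after seeing the data. With it 9 of all genes passed, and with genes detected 11, against 391 without. Of the other Notch genes 2 passed, and this count was 1 with a pseudocount of 0.1, without the filter, at a mean FPKM of at least 10, after rescaling, after quantile normalization, without a trend and with 3 groups, 0 with either depth covariate and 0 to 1 without each library. The 1 was Mfng at a mean FPKM of at least 10 and Kat2a in the other settings with all libraries. The count of all genes was 254 without the filter, 259 without Control replicate 1 and 260, 245 and 247 without GL261 replicates 1 and 2 and B16 replicate 3. Of all calls 73.9% were higher, and 63.5% after rescaling and 62.1% after quantile normalization. The replicate numbers were not shown to pair the libraries: deviations of same-numbered libraries correlated at -0.033 to 0.044 and of others at -0.030 to 0.052. With the replicate block 0 members, 2 other Notch genes and 303 of all genes passed. Where a control library listed a member at 0, a level under that of 3 fragments was not detectable, which is 0.387 FPKM for Notch4, 0.543 for Dll1, 0.475 and 0.409 for Jag2 and 0.798 for Hey1.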
